A study of Mus musculus with 8 samples.

Results

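The genes described here are 10 members of the inflammasome and interleukin-1 (IL-1) system: Nlrp3, Aim2, Pycard, Casp1, Casp4, Gsdmd, Il1a, Il1b, Il18 and Il1rn. They were found by symbol among the 26939 genes of the joined count tables, and all 10 passed the low-count filter in every comparison. The samples were tumor-associated macrophages (TAMs) from EO771 mammary tumors of female mice aged 8 to 14 weeks, taken at day 21. Viable cells were gated by flow cytometry as positive for CD45, CD11b and F4/80 and negative for Gr-1. Wild-type (WT) C57BL/6J mice were compared with Unc93b1 3d/3d mice, in which a missense allele in every cell of the animal leaves the endosomal Toll-like receptors TLR3, TLR7 and TLR9 without function. Within each genotype, one group had received αMARCO, the rat IgG1 antibody clone ED31, at 100 µg by the intravenous route on days 3, 6, 9 and 12. The other was a control group, which the labels call untreated or given PBS and the methods describe as given an IgG1 isotype antibody. There were 2 libraries in each of the 4 groups, and each control library was pooled from 3 mice. The sort purified macrophages but did not select one TAM subset, and in such bulk samples fewer cells of a type and less RNA per cell cannot be told apart. By the deposited GRCm38 positions, Il1rn (chr2:24336853-24351494), Il1a (chr2:129299610-129309972) and Il1b (chr2:129364570-129371139) lie on chromosome 2, and Casp1 (chr9:5298517-5307265), Casp4 (chr9:5308828-5336783) and Il18 (chr9:50554827-50581840) on chromosome 9. Aim2 lies at chr1:173350879-173466040, Pycard at chr7:127989708-127993867, Nlrp3 at chr11:59541568-59566956 and Gsdmd at chr15:75862327-75867408. One Unc93b1 3d/3d control library carried a characteristics field that spells the genotype differently from its title, and it was kept in the group its title gives.

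Inflammasomes are cytosolic complexes in which a sensor such as NLRP3 or AIM2 recruits the adaptor ASC, the product of Pycard, which in turn activates caspase-1. Caspase-1 cleaves the precursors of IL-1β and IL-18 and the pore-forming protein gasdermin D, whereas caspase-11, the product of mouse Casp4, cleaves gasdermin D in response to cytosolic lipopolysaccharide. Transcription of Nlrp3 and Il1b is the step known as priming and follows Toll-like receptor and NF-κB signalling, and the IL-1 receptor antagonist encoded by Il1rn blocks the receptor that IL-1α and IL-1β share. RNA levels say nothing of complex assembly, cleavage or secretion.

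The sequences before the starts of Pycard, Casp1 and Il1b are shown because these were the 3 members called between the control groups, where all 3 were higher in WT TAMs. Each run is the 250 bases before the RefSeq gene start (GRCm38.p6), written 5′ to 3′ on the gene's own strand, with matches to the searched motifs in capitals.
Pycard, chr7:127993868-127994117, minus strand: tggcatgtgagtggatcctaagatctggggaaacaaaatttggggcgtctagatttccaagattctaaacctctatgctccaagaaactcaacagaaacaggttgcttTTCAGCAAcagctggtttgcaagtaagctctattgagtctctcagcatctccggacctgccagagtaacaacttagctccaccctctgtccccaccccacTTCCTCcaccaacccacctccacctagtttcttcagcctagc
Casp1, chr9:5298267-5298516, plus strand: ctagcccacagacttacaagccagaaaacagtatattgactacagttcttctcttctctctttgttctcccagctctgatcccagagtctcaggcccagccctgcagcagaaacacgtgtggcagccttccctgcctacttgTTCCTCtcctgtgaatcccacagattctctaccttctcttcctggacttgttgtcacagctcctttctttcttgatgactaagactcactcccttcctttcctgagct
Il1b, chr2:129371140-129371389, minus strand: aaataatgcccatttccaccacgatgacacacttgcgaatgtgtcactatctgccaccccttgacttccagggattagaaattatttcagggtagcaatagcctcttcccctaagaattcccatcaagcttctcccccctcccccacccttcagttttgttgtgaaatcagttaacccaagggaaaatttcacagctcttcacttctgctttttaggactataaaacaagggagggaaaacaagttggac

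The 5 motifs searched on both strands were an NF-κB core (GGANNTTCC), a core of the interferon-stimulated response element (GAAANNGAA), a PU.1 core (GAGGAA), an AP-1 form (TGANTCA) and a C/EBP form (TTGCNNAA). In Pycard, the PU.1 core lay on the opposite strand at positions -42 to -37 from the start and the C/EBP form at positions -142 to -135. In Casp1, the PU.1 core lay on the opposite strand at positions -108 to -103. None of the 5 motifs was found in the Il1b window, which says only that these letters were not in it. Of all 32851 windows of that length, 23.3% held the PU.1 core, 9.56% the C/EBP form, 7.13% the interferon-stimulated element, 6.75% the AP-1 form and 3.59% the NF-κB core. Of the other members, only Nlrp3 had the NF-κB core, at positions -122 to -114 on the opposite strand of 1 of its 2 windows. RefSeq windows were matched for 9 of the 10 members, without Gsdmd. A match is a description of the letters and was not tested as a binding site.

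The libraries held 15182618 to 26411936 counts assigned to genes, so that 3 counts corresponded to 0.114 to 0.198 per 1000000 assigned counts. Levels are given as CPM, the count per 1000000 assigned counts after each library total was scaled by its TMM normalization factor. Unc93b1 was at 707 to 965 CPM in the WT libraries and at 539 to 660 CPM in the Unc93b1 3d/3d libraries, a level that does not check a missense allele. Marco, the gene of the antibody's target, had at most 0.942 CPM in any library. The macrophage markers Adgre1 and Cd68 were present at 331 to 720 and 763 to 1052 CPM, and the neutrophil marker Ly6g did not exceed 0.842 CPM.

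One library stood apart. The αMARCO-treated Unc93b1 3d/3d libraries differed from each other by a median absolute log2 difference of 0.54 over 16620 genes, against 0.15 to 0.20 in the other groups. The difference, replicate 2 minus replicate 1, ran with gene length, from a median of 0.32 in the shortest of 5 equal length bins to -0.46 in the longest, whereas the other groups stayed between -0.03 and 0.05. Replicate 2 of that group also had 27.5 CPM of Tlr9, against 87.1 to 118 CPM in the other 7 libraries. Of the members, Pycard (1.23), Il1b (0.81), Casp1 (0.54), Il18 (0.52) and Gsdmd (0.52) had the largest positive log2 differences between these 2 libraries, and Il1a (-0.45) and Nlrp3 (-0.42) the most negative. The members' fold changes in the pairwise comparisons that use this group are therefore given or drawn with and without each of the 2 libraries. For the interaction this was done for every member but Il1a. Means, ranks and the other gene lists use both. With αMARCO in Unc93b1 3d/3d TAMs, the log2 fold change of Il1b was 1.61, and 1.62 after a length and GC correction. For Pycard these were 0.71 and 0.77. The part of this library difference in the results was not tested further.

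**Figure D1:**
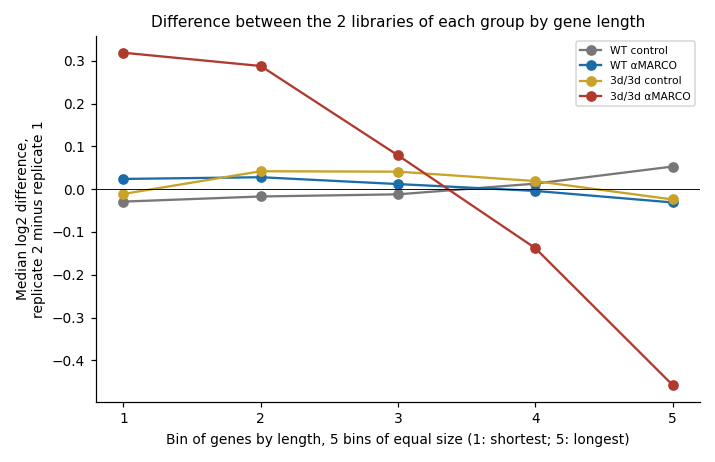
Median log2 difference between the 2 libraries of each group (replicate 2 minus replicate 1, vertical axis) in 5 equal bins of genes ordered by length (horizontal axis), with 1 line per group. The αMARCO-treated Unc93b1 3d/3d group runs from 0.32 to -0.46, and the other 3 groups lie near 0.

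In WT TAMs, the comparison asks which members differed between tumors of αMARCO-treated and control mice. Il1rn rose and Pycard fell with αMARCO. Nlrp3 and Casp4 were also higher and Casp1 lower by the adjusted P, with changes under the fold threshold that did not pass in every alternative. Il1rn and Pycard did not pass in every alternative either. With all 8 libraries in 1 model their adjusted P was 0.0674 and 0.351. A gene was called when its adjusted P was at most 0.05 and its log2 fold change at least 0.5 in size. By this rule 2 of the 10 members were called, against 20.7% of the 15630 genes tested (8.91% higher, 11.8% lower). At any fold change 5 of the 10 passed the adjusted P, against 35.1% of all genes. The 2 groups did not overlap for 9 of the 10 members, against 70.9% of those genes. The members' median log2 fold change was 0.24 beside -0.01 over all genes.

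Among the sensors, Nlrp3 was at 147 and 143 CPM in the WT controls and at 183 and 202 CPM after αMARCO. Both treated libraries were above both controls, by 0.41 ± 0.08 (SE) on the log2 scale, adjusted P 0.00399. It passed the adjusted P with DESeq2 (0.000492) but not with all 8 libraries in 1 model (0.255) or without WT αMARCO replicate 2 (0.0536). Aim2, a sensor of cytosolic DNA, was at 79.8 and 90.7 CPM in the controls and 97.3 and 101 CPM after treatment, 0.22 ± 0.09 on the log2 scale, with an adjusted P of 0.0672. Its groups did not overlap, but the difference missed the threshold.

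Pycard, the adaptor between sensor and caspase-1, was at 119 and 137 CPM in the WT controls and at 86.1 and 83.8 CPM after αMARCO. Both treated libraries were lower, and the gap between the groups was wider than that between replicates. The log2 fold change was -0.58 ± 0.09 (adjusted P 0.00112). It stayed between -0.68 and -0.48 when each library was left out in turn, and fell under the fold threshold without WT control replicate 2.

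Of the inflammatory caspases, Casp1 was at 112 and 127 CPM in the controls and at 98.1 and 96.8 CPM after treatment, a log2 fold change of -0.29 ± 0.08 (adjusted P 0.023). Casp4 was at 80.5 and 88.5 CPM in the controls and at 101 CPM in both treated libraries, 0.27 ± 0.08 higher on the log2 scale (adjusted P 0.0285). The groups of neither gene overlapped, and the adjusted P was past 0.05 for both in several alternatives. It was 0.0538 for Casp1 and 0.0549 for Casp4 with DESeq2, and 0.404 and 0.34 with all 8 libraries in 1 model. It reached 0.125 and 0.139 when 1 library was left out, missing for Casp1 without WT control replicate 2 or either treated library and for Casp4 without WT control replicate 1 or either treated library. The length and GC correction took Casp4 to 0.11 on the log2 scale (adjusted P 0.277). Gsdmd, the pore-forming effector, was at 219 and 198 CPM in the controls and at 189 and 176 CPM after treatment, with a 95% confidence interval of the log2 fold change from -0.38 to 0.00.

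Among the cytokines and their antagonist, Il1rn was at 361 and 410 CPM in the controls and at 635 and 766 CPM after αMARCO. The treated libraries were both above the controls, by 1.83-fold (log2 fold change 0.87 ± 0.11, adjusted P 0.000651). Il1b was at 1499 and 1188 CPM in the controls and at 1544 and 1771 CPM after treatment. The groups lay close to each other, and the log2 fold change of 0.31 ± 0.13 had an adjusted P of 0.0865. Il1b passed the adjusted P with DESeq2 (0.0258), without a low-count filter (0.00949) and after the length and GC correction (0.0393). It missed in the other alternatives that kept all libraries, up to 0.572 with all 8 libraries in 1 model. Across these alternatives the log2 fold change was 0.30 to 0.40, under the fold threshold. Il18 was at 35.1 and 30.5 CPM in the controls and at 29.3 and 28.5 CPM after treatment, with an interval from -0.41 to 0.06. Il1a, which acts from its uncleaved precursor and from dying cells, had only 1.68 and 3.16 CPM in the controls and 2.67 and 3.43 CPM after treatment. Its groups overlapped, and its interval from -0.45 to 1.15 left changes of either sign possible at this depth.

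**Figure D2:**
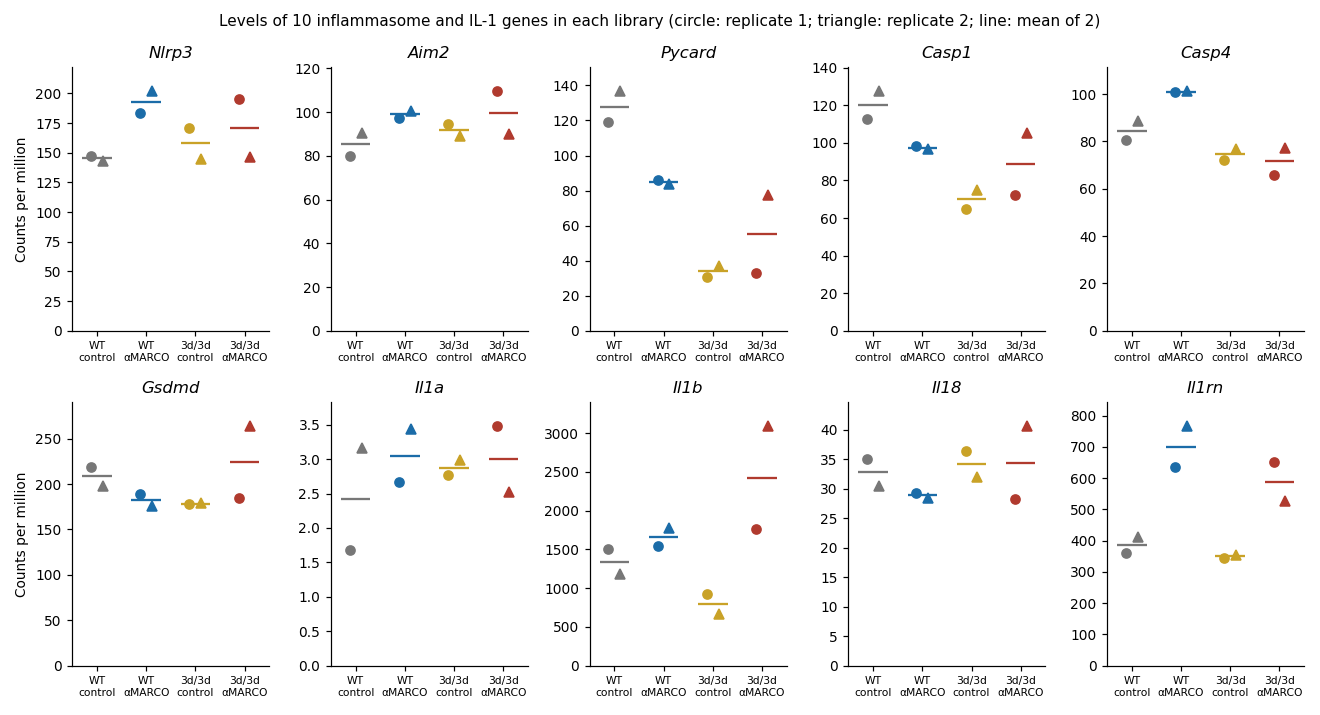
CPM (vertical axes, from 0, a scale of its own per gene) of the 10 genes in the 4 groups (horizontal axes), with a circle for replicate 1, a triangle for replicate 2 and a line for their mean. Il1rn is at 635 to 766 in treated and 361 to 410 in control WT libraries, and the 2 treated Unc93b1 3d/3d libraries are at 33.0 and 77.4 for Pycard.

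Marker lists of other cells moved with this comparison. The summed level of 8 mature dendritic cell markers was 723 to 1171 CPM in the WT controls and 325 to 395 CPM after αMARCO, and 6 of the 8 were called lower. The summed level of 9 T cell markers was 86.7 to 105 CPM in the controls and 8.74 to 14.5 CPM after treatment, and 9 of 9 were called lower. The type 1 conventional dendritic cell list went from 231 to 243 CPM in the controls to 103 to 106 CPM after treatment (3 of 5 called lower), the nonclassical monocyte list from 2196 to 2326 CPM to 1749 to 1917 CPM (3 of 8 lower, 1 higher) and the stromal list from 81.0 to 96.3 CPM to 21.5 to 35.2 CPM (3 of 5 lower). Of 7 tested neutrophil markers, 4 were called lower and 0 higher, with a median log2 fold change of -2.32. S100a9, for example, was at 24.4 and 7.59 CPM in the controls and at 1.70 and 0.887 CPM after treatment. The summed neutrophil level, 333 to 354 CPM in the controls and 385 to 386 CPM after treatment, was mostly Csf3r (262 and 279, then 357 and 354 CPM), which monocytes also express, and Camp had fewer than 3 counts in every library. Of the tested markers on the remaining lists, 3 of 10 macrophage, 2 of 5 NK cell, 1 of 3 B cell, 1 of 1 mast cell or basophil and 2 of 3 epithelial or tumor cell markers were called lower, and 2 of 6 classical monocyte markers were called higher. The part of these lists in the members' differences was not tested.

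**Figure D3:**
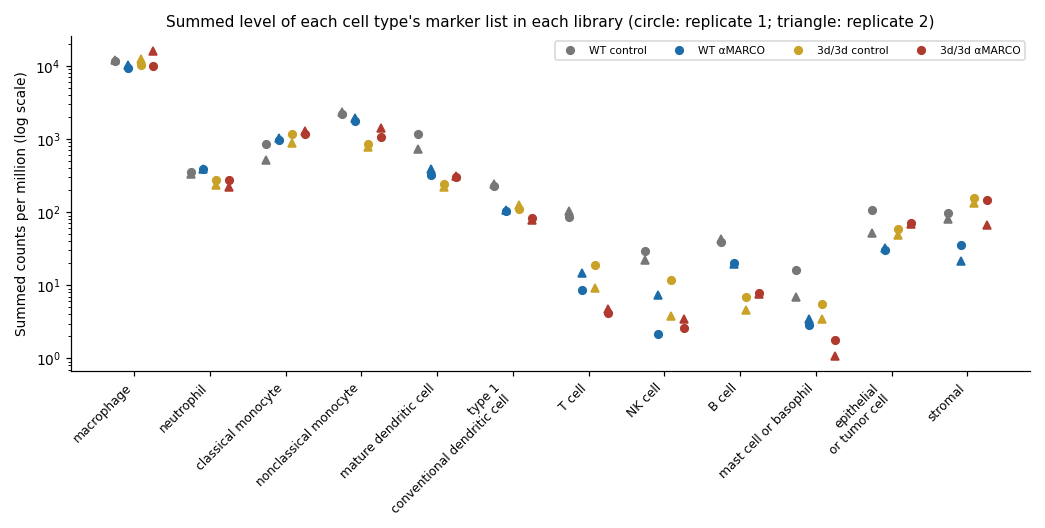
Summed CPM (vertical axis, log scale) of each fixed marker list (horizontal axis) in each library, coloured by group, with a circle for replicate 1 and a triangle for replicate 2. The mature dendritic cell and T cell lists are highest in the 2 WT control libraries, at 723 to 1171 and 86.7 to 105.

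Without functional endosomal receptors, the same comparison asks which members differed with αMARCO in Unc93b1 3d/3d mice. Il1b and Il1rn were higher in both treated libraries than in both controls. No gene was called here (0% of the 15428 tested by edgeR, with 744 at an unadjusted p under 0.05 and 60 called by DESeq2), so 0 of the 10 members were called. The groups did not overlap for 3 members, Il1b, Il1rn and Gsdmd, against 38.9% of all genes. The intervals below were wide, and a missed threshold does not show that a level was the same. Marker sums differed here too. The nonclassical monocyte list was at 785 to 866 CPM in the controls and 1051 to 1398 CPM after αMARCO. The classical monocyte list was at 871 to 1183 and then 1186 to 1281 CPM. The T cell list went the other way, from 9.28 to 19.0 CPM to 4.15 to 4.69 CPM. The part of these lists in the members' differences was not tested.

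Il1b was at 927 and 666 CPM in the Unc93b1 3d/3d controls and at 1757 and 3087 CPM after αMARCO. Both treated libraries were above both controls, 3.06-fold on average, but the treated libraries also differed strongly from each other. The log2 fold change was 1.61 ± 0.40, with a 95% confidence interval from 0.65 to 2.58, an unadjusted p of 0.00646 and an adjusted P of 0.823. DESeq2 on the same libraries called Il1b and no other member (log2 fold change 1.59, adjusted P 0.00312). Without replicate 2 of the treated group, the library that stood apart, the log2 fold change of Il1b was 1.14 (adjusted P 6.27e-06), and without replicate 1 it was 1.97 (adjusted P 5.64e-08). Each of these refits assumes that the lone treated library varies like the control pair.

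Il1rn was at 345 and 355 CPM in the Unc93b1 3d/3d controls and at 650 and 528 CPM after αMARCO. The treated libraries were both higher, by 0.76 ± 0.25 on the log2 scale, with an adjusted P of 0.823. The value was 0.89 without treated replicate 2 (adjusted P 4.85e-06) and 0.61 without treated replicate 1 (adjusted P 0.000802). With either treated library alone, Il1b and Il1rn were both called. With both libraries, Il1rn missed the threshold in edgeR and in DESeq2, and Il1b missed it in edgeR but was called by DESeq2 and by edgeR without a low-count filter (adjusted P 0.000726). For Il1rn, the effect in WT minus that in Unc93b1 3d/3d TAMs had an interval from -0.47 to 0.69.

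Pycard was at 30.95 and 37.1 CPM in the Unc93b1 3d/3d controls and at 33.0 and 77.4 CPM after αMARCO. Treated replicate 1 lay among the controls and replicate 2 was well above them. The log2 fold change of 0.71 ± 0.42 was -0.04 without replicate 2 and 1.20 without replicate 1, so its size and sign rested on 1 library. Casp1 had the same form, at 65.0 and 74.8 CPM in the controls and 72.4 and 105 CPM after treatment, with log2 fold changes of 0.05 without replicate 2 and 0.61 without replicate 1. Gsdmd, at 178 and 179 CPM in the controls and 184 and 264 CPM after treatment, changed by 0.05 without replicate 2 and 0.58 without replicate 1.

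The remaining members had overlapping groups in Unc93b1 3d/3d TAMs. Nlrp3 was at 171 and 145 CPM in the controls and 195 and 146 CPM after treatment, and Aim2 at 94.4 and 89.3 CPM and then 109 and 90.1 CPM. Casp4 was at 72.3 and 76.8 CPM in the controls and 65.8 and 77.2 CPM after treatment. Il18 was at 36.4 and 32.0 CPM and then 28.2 and 40.6 CPM, and Il1a at 2.76 and 2.99 CPM and then 3.48 and 2.52 CPM. The 95% confidence intervals of their log2 fold changes all held 0, the narrowest from -0.57 to 0.46 for Casp4.

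**Figure D4:**
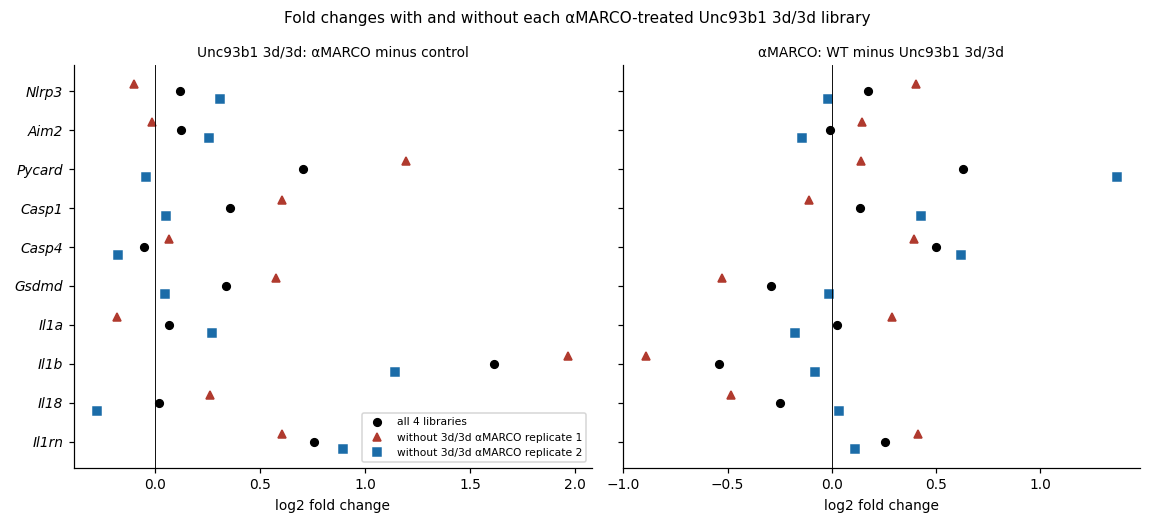
Log2 fold change (horizontal axes) of the 10 genes (vertical axis) with αMARCO in Unc93b1 3d/3d TAMs (left) and between genotypes under αMARCO, WT minus Unc93b1 3d/3d (right), with all 4 libraries and without each treated Unc93b1 3d/3d library. Pycard moves from -0.04 to 1.20 on the left and from 0.14 to 1.37 on the right, while Il1b stays above 1 on the left.

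Between genotypes under αMARCO, the comparison asks which members differed in treated TAMs with and without endosomal receptors. No gene was called (0% of the 15722 tested by edgeR, with 1076 at an unadjusted p under 0.05 and 215 called by DESeq2, none of them a member). Pycard and Casp4 were the 2 members whose groups did not overlap, against 44.3% of all genes. Pycard was at 86.1 and 83.8 CPM in WT and at 33.0 and 77.4 CPM in Unc93b1 3d/3d TAMs, 0.63 ± 0.42 higher in WT on the log2 scale (adjusted P 0.709). Without the library that stood apart, it was 1.37, and without the other treated Unc93b1 3d/3d library it was 0.14. Each of these refits leaves a lone treated Unc93b1 3d/3d library, so it cannot measure the spread of that group. Casp4 was at 101 CPM in both WT libraries and at 65.8 and 77.2 CPM in Unc93b1 3d/3d libraries, 0.50 ± 0.18 higher in WT on the log2 scale (adjusted P 0.708). It lay between 0.39 and 0.62 when either Unc93b1 3d/3d library was left out, higher in WT each time.

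Il1b and Il1rn overlapped between the treated genotypes. Il1b was at 1544 and 1771 CPM in WT and at 1757 and 3087 CPM in Unc93b1 3d/3d TAMs (log2 fold change -0.54, interval -1.44 to 0.35). Without the library that stood apart it was -0.08, and without the other Unc93b1 3d/3d library it was -0.89. Il1rn gave 0.25, with an interval from -0.35 to 0.86. The nonclassical monocyte list was at 1749 to 1917 CPM in treated WT and 1051 to 1398 CPM in treated Unc93b1 3d/3d libraries. The classical monocyte list went the other way, at 956 to 1034 and 1186 to 1281 CPM. The part of these lists in the members' differences was not tested.

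Between the control groups, 3 of 10 members were called higher in WT and 0 lower, beside 6.58% and 6.40% of the 15600 genes tested. The groups did not overlap for 6 members, against 63.1% of all genes. These 3 were Pycard, Casp1 and Il1b, with log2 fold changes of 1.89 ± 0.12, 0.76 ± 0.11 and 0.74 ± 0.18. Pycard kept between 1.77 and 2.02 when each library was left out. Il1b was at 0.51 (adjusted P 0.0655) without Unc93b1 3d/3d control replicate 2. With all 8 libraries in 1 model, where the spread of the treated Unc93b1 3d/3d libraries counts too, Pycard kept its call (adjusted P 0.0332), whereas Casp1 (0.0958) and Il1b (0.273) did not. In the same model the treatment calls in WT TAMs were also lost, with an adjusted P of 0.351 for Pycard and 0.0674 for Il1rn.

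The WT control libraries held the highest mature dendritic cell and T cell marker sums of all groups. In the Unc93b1 3d/3d controls those sums were 218 to 243 and 9.28 to 19.0 CPM, and 5 of 8 and 9 of 9 markers were called higher in WT. The nonclassical monocyte list was at 2196 to 2326 CPM in the WT and 785 to 866 CPM in the Unc93b1 3d/3d controls. Also higher in WT were the type 1 conventional dendritic cell (231 to 243 against 111 to 127 CPM) and neutrophil lists (333 to 354 against 236 to 274 CPM). The B cell list was at 38.95 to 43.2 against 4.57 to 6.97 CPM. Lower in WT were the stromal (81.0 to 96.3 against 135 to 157 CPM) and classical monocyte lists (522 to 847 against 871 to 1183 CPM). Their part in the differences of Pycard, Casp1 and Il1b was not tested.

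**Figure D5:**
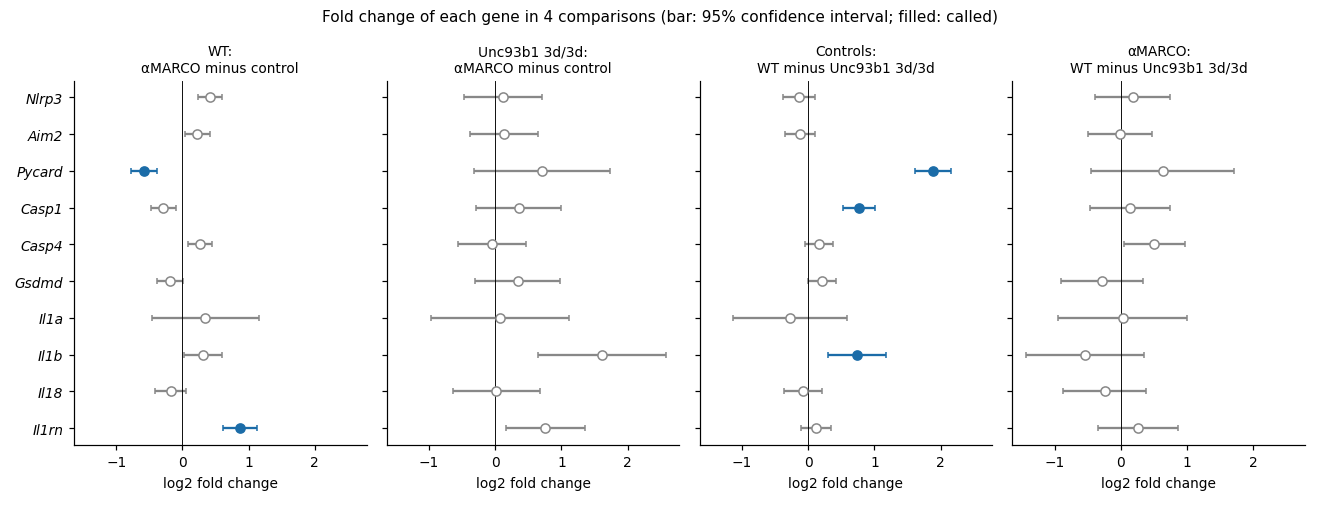
Log2 fold change (horizontal axes) of the 10 genes (vertical axis) in the 4 pairwise comparisons, with bars for the 95% confidence interval and filled points for called genes. Called points are Pycard and Il1rn with αMARCO in WT TAMs and Pycard, Casp1 and Il1b between controls, and the intervals are wider in both comparisons that use the treated Unc93b1 3d/3d libraries.

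Whether αMARCO acted differently in the 2 genotypes was tested as an interaction over all 8 libraries. It gave 0 called genes of 16620 (0%), with 2549 at an unadjusted p under 0.05 and 208 called by DESeq2, and 0 of the 10 members were called by either tool. Pycard had a difference, WT effect minus Unc93b1 3d/3d effect, of -1.28 ± 0.47 (adjusted P 0.318), Il1b of -1.30 ± 0.42 (adjusted P 0.318) and Casp1 of -0.64 ± 0.27 (adjusted P 0.324). Without the library that stood apart these were -0.55 (adjusted P 0.0853), -0.85 (adjusted P 0.112) and -0.36. Without the other treated Unc93b1 3d/3d library, Pycard was at -1.77, Il1b at -1.65 and Casp1 at -0.89. From the first of these refits to the second, Gsdmd went from -0.25 to -0.76, Nlrp3 from 0.085 to 0.515 and Casp4 from 0.43 to 0.21. An effect called in WT and not in Unc93b1 3d/3d TAMs was therefore not shown to differ between the genotypes.

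The 4 groups could be ordered for the members that varied most. Pycard was highest in WT controls (119 to 137 CPM), then in WT after αMARCO (83.8 to 86.1 CPM), and lowest in the Unc93b1 3d/3d groups, whose ranges overlapped each other. Il1b was lowest in the Unc93b1 3d/3d controls (666 to 927 CPM), and the ranges of the treated groups overlapped, at 1544 to 1771 CPM in WT and 1757 to 3087 CPM in Unc93b1 3d/3d TAMs. For Il1rn, both control groups (345 to 410 CPM) lay below both treated groups (528 to 766 CPM), without overlap between treated and control and with overlap between the treated genotypes.

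The balance of agonist and antagonist can be read as the ratio of Il1b to Il1rn CPM. This ratio was 4.15 and 2.90 in the WT controls and 2.43 and 2.31 after αMARCO. In the Unc93b1 3d/3d controls it was 2.69 and 1.88, and after αMARCO 2.70 and 5.85. The treated WT libraries were thus both below their controls. Of the treated Unc93b1 3d/3d libraries, replicate 1 was about level with the higher control. Only replicate 2, the library that stood apart with gene length, was clearly above. Il1b and Il1rn differ in length, at 1907 and 5535 bases, and the part of length in this ratio was not tested.

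Per transcript length, in the deposited FPKM values, Il1b was the most abundant member in all 4 groups and Il1a the least. The mean FPKM of Il1b ran from 417 in the Unc93b1 3d/3d controls to 1261 in the treated Unc93b1 3d/3d group. Il1rn moved from rank 4 to rank 2 of the 10 members in WT TAMs with αMARCO, at 68.7 and then 126 FPKM, and from rank 3 to rank 2 in Unc93b1 3d/3d TAMs. Pycard was at rank 6 in the WT controls (33.1 FPKM) and at rank 9 in each other group (8.94 to 22.4 FPKM). Exons of Pycard, Il1a and Il1b share 485, 222 and 25 bases with genes on the opposite strand. Those genes held 5, 90 and 599 counts over the 8 libraries, and the strand setting of the counting was not given in the sources used here.

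The genes whose pattern over the 8 libraries was most like that of Pycard, by the root mean square difference of centred log2 CPM, were Magohb (0.128), Batf3 (0.153) and Id3 (0.180), beside a standard deviation of 0.846 for Pycard itself. For Casp1 they were Snhg12, Acvrl1 and Ifi27 (0.0652 to 0.0822), and for Il1b Mir17hg, Notch4 and Glyctk (0.137 to 0.206). For Nlrp3 they were March7, Casc3 and Tut1 (0.0359 to 0.0672). These are descriptions over libraries that share groups and depth.

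Of a list of 43 further inflammasome and IL-1 genes, 35 passed the filter, 3 did not, and 5 symbols of the IL-36 and IL-1F10 branch were not matched. In WT TAMs, 6 of the 35 were called higher and 5 lower with αMARCO (8.91% and 11.8% of all genes), with a median log2 fold change of -0.03 beside -0.01 over all genes. The sensors made up most of those that rose. Mefv, which encodes pyrin, was at 156 and 124 CPM in the controls and 237 and 259 CPM after treatment (log2 fold change 0.83 ± 0.11, adjusted P 0.000814). Nlrc4, the adaptor-sensor that NAIP proteins activate, rose by 0.51 (adjusted P 0.009). Naip5 rose by 0.78 (adjusted P 0.00015), Naip6 by 0.69 (0.000885) and Nlrp1b by 0.88 (0.0495). Nlrc4 by its fold change and Nlrp1b by its adjusted P lay close to the thresholds. Calls on this list were not followed gene by gene through the alternatives. The Naip and Nlrp1 genes have near-identical copies among which reads can be split, so their values are uncertain. The sixth, the alarmin Il33, had at most 1.09 CPM in any library.

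Receptors and regulators made up those that fell in WT TAMs. Sigirr, an inhibitory receptor of the family, was at 13.5 and 8.81 CPM in the controls and 4.32 and 4.90 CPM after treatment (log2 fold change -1.26 ± 0.24, adjusted P 0.00327). Il18r1, the IL-18 receptor chain that T and NK cells also carry, was at 8.74 and 10.8 CPM and then 1.55 and 2.08 CPM (-2.40 ± 0.25, adjusted P 0.000223). The T cell list was lower in the same comparison, and its part in the fall of Il18r1 was not tested. The signalling receptor Il1r1 (-0.56), the NLRP3-binding Txnip (-0.51) and the protease inhibitor Serpinb1a (-0.75) were the other members of the list called lower.

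With αMARCO in Unc93b1 3d/3d TAMs and between the treated genotypes, 0 of the 35 were called, beside 0% of all genes. There Mefv was at 197 and 170 CPM in controls and 193 and 131 CPM after treatment, and Naip5 at 119 and 112 CPM and then 189 and 125 CPM. The first overlapped between groups, the second did not. Between the controls, 3 of the 35 were called higher in WT and 1 lower, beside 6.58% and 6.40% of all genes, so the share called was near that of all genes. Their median was -0.12 beside 0.00 over all genes. The genes called were Gbp2, a guanylate-binding protein (0.78), Serpinb1a (1.07), Il18r1 (2.06) and, lower in WT, the channel gene Panx1 (-0.57).

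A list of 16 NF-κB response genes, read as neighbours of the priming step, had 15 members tested. Between controls, 13 of the 15 were called, each with the higher level in WT (6.58% of all genes were called higher), with a median log2 fold change of 0.89 beside 0.00 over all genes. The mature dendritic cell markers (5 of 8 called higher, median 2.52) and T cell markers (9 of 9, median 2.74) moved in the same direction in this comparison, and their part in it was not tested. Nfkbia, the NF-κB inhibitor, was at 549 and 507 CPM in WT and 201 and 181 CPM in Unc93b1 3d/3d controls (1.45 ± 0.10, adjusted P 5.61e-05), and Tnf was higher by 0.88. With αMARCO in WT TAMs, 0 of 15 were called higher and 4 lower, namely Nfkbia (-0.82), Cxcl1 (-0.90), Il6 (-1.10) and Relb (-0.51), beside 8.91% and 11.8% of all genes. The mature dendritic cell and T cell markers were lower in the same comparison (6 of 8 and 9 of 9 called), and their part in it was not tested. Il1b was not called there. Between the treated genotypes and with αMARCO in Unc93b1 3d/3d TAMs, 0 of 15 were called, beside 0% of all genes. A missed call there does not show that levels were the same. Between the treated genotypes, 13 of the 15 had a higher estimate in WT, with a median log2 fold change of 0.525 beside -0.03 over all genes. The groups did not overlap for 12 of the 15, in either direction, against 44.3% of all genes.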

How the data were processed

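RNA-seq of 8 TAM libraries was read from 3 deposited tables, each covering 2 groups. Per the labels, the authors trimmed with fastp, aligned to GRCm38 with HISAT2 (2.0.5) and counted with featureCounts (1.5.0). The deposited values used were raw counts per gene and the authors' FPKM. Size-factor-normalized columns and the authors' own comparison columns (log2 fold change, p and adjusted p) were not used. Tables were joined by gene identifier, and 0 of 95230 counts held in 2 tables differed. Where a gene was absent from a table, the value of the same library in another table was used. It was set to 0 where no table held it for that library. CPM was the count per 1000000 assigned counts, with each library total scaled by its TMM factor over all 8 libraries. Tests used edgeR (4.0.16) with TMM, filterByExpr and robust quasi-likelihood fits on the 4 libraries of each comparison, or on all 8 for the interaction, with Benjamini-Hochberg adjustment over all genes tested. Intervals are 95%. Scripts were tested on simulated data. DESeq2 (1.42.0), RLE factors, other filters and fold thresholds, a replicate block, leave-one-out refits and 1 model of all libraries were alternatives, and a length and GC smooth (mgcv) was chosen after seeing the data. The alternatives were read for the members and for the number of genes called, not for single genes of the other lists or markers. The members, lists and tests were chosen with earlier results of these data known. All members were named. Of the other lists, genes called in at least 1 comparison could be named, and for 4 members the 3 genes of most similar pattern. Tlr9, Marco and the markers were named after their values were seen. Nothing says that libraries of treated mice came from separate animals, so P-values measure the spread between these samples. With 2 libraries a group, an exact permutation test cannot go below p = 0.333.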

Additional observations from a re-analysis of the deposited data

How the results depend on the processing

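Direction and call depended mainly on the αMARCO-treated Unc93b1 3d/3d libraries, whose spread limits 3 of the 5 comparisons. Counting depth limits only Il1a, at 1.68 to 3.48 CPM.

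With αMARCO in WT TAMs, 5487 genes and 5 members passed with no fold threshold, 1366 genes and 0 members at a log2 fold change of at least 1, and 164 genes and 0 members with all 8 libraries in 1 model. In Unc93b1 3d/3d TAMs, DESeq2 called 60 genes and 1 member, Il1b. Without a low-count filter 174 genes and 1 member were called there, again Il1b (log2 fold change 1.61, adjusted P 0.000726), and 1 gene in the model of all 8 libraries. Between treated genotypes, 215 genes were called by DESeq2, 107 without a filter, 108 in the model of all 8 libraries and 4 after the length and GC correction, with 0 members in each. Between controls, 951 genes and 1 member passed at a log2 fold change of at least 1, and 364 genes and 1 member in the model of all 8 libraries. For the interaction, DESeq2 called 208 genes and the fit without a filter 152. The causes of these differences were not tested, other than the fold threshold, which admits fewer genes by construction.

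With the replicate block, 5 genes were called in Unc93b1 3d/3d TAMs and 97 between the treated genotypes, while the members called did not change in number in any comparison. The numbers do not pair the samples, since no label gives a shared animal or day and replicate differences correlated between groups at -0.001 to 0.135.

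Leaving out 1 library gave 1940 to 3951 genes and 1 to 2 members with αMARCO in WT TAMs, the lowest without WT αMARCO replicate 1 and, for members, without WT control replicate 2. It gave 1 to 5500 genes and 0 to 5 members in Unc93b1 3d/3d TAMs, 17 to 6366 genes and 0 to 2 members between treated genotypes, and 0 to 6440 genes and 0 to 5 members for the interaction, with the highest gene count in each without Unc93b1 3d/3d αMARCO replicate 1. Between controls it gave 1493 to 2232 genes and 2 to 3 members.

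Signs turned only where values were small or one library decided them. For Il18 in Unc93b1 3d/3d TAMs (0.017) the value was -0.004 with DESeq2 and with RLE factors, -0.019 with 10 counts in every library and -0.005 with the replicate block. Aim2 between treated genotypes (-0.009) was 0.002 with DESeq2 and RLE factors and 0.019 with 10 counts in every library. After the length and GC correction, Casp4 in Unc93b1 3d/3d TAMs was 0.007, Il1a between treated genotypes -0.010 and the interaction of Il1rn -0.080. The leave-one-out ranges that held both signs were, with αMARCO in WT, -0.041 to 0.863 for Il1a. With αMARCO in Unc93b1 3d/3d TAMs they were -0.045 to 1.197 for Pycard, -0.098 to 0.309 for Nlrp3, -0.013 to 0.255 for Aim2, -0.178 to 0.065 for Casp4, -0.180 to 0.271 for Il1a and -0.274 to 0.262 for Il18. Between treated genotypes they were -0.020 to 0.403 for Nlrp3, -0.143 to 0.143 for Aim2, -0.108 to 0.430 for Casp1, -0.178 to 0.290 for Il1a and -0.484 to 0.035 for Il18. Between controls they were -0.778 to 0.127 for Il1a and -0.173 to 0.032 for Il18, and for the interaction -0.115 to 0.788 for Il1a, -0.043 to 0.268 for Il1rn, -0.433 to 0.079 for Il18 and -0.050 to 0.243 for Aim2.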
